A study of Mus musculus with 3 samples.

Results

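Krt6a, Krt6b, Krt16, Krt17, S100a8 and S100a9 are the stress keratins and the S100 alarmins of skin, 6 of the 32285 genes in the count tables. They were chosen by name, and their unique molecular identifiers (UMIs, 1 per captured mRNA molecule) were summed over the 26847 cells with at most 10% mitochondrial UMIs and at least 200 genes. The cells came from the dorsal skin of female C3H/HeN mice that were 25 weeks old, with the skin of 7 to 8 mice pooled into 1 library for each group. The control group, labelled Neg, received vehicle. The AA group is a model of alopecia areata, an autoimmune hair loss, made by intradermal transfer of cultured and stimulated skin-draining lymph node cells from affected mice, and the AA+Ab group is the same model given an antibody against the chemokine CXCL12 to neutralize it. The labels name no control antibody for the AA group.

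Keratins form the filaments of epithelial cells from pairs of a type I and a type II chain. The type II keratins Krt6a and Krt6b and the type I keratins Krt16 and Krt17 are made in hair follicle sheaths and nail bed, and the epidermis between follicles is known to switch them on after wounding and in inflammation. S100a8 and S100a9 are small calcium-binding proteins that pair as calprotectin, which neutrophils and monocytes store in large amounts and which inflamed keratinocytes can also make.

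On mm10 the genes lie in pairs. Krt6a (ENSMUSG00000058354, chr15:101689910-101694307, minus strand) neighbours Krt6b (ENSMUSG00000023041, chr15:101676023-101680287, minus strand). Krt16 (ENSMUSG00000053797, chr11:100246091-100248902, minus strand) neighbours Krt17 (ENSMUSG00000035557, chr11:100256217-100261029, minus strand). S100a8 (ENSMUSG00000056054, chr3:90668978-90670035, plus strand) and S100a9 (ENSMUSG00000056071, chr3:90692632-90695721, minus strand) are read in opposite directions. The last 500 bases of the transcripts, which 3′ libraries read, shared 0 of 411 windows of 90 bases between Krt6a and Krt6b and 0 of 411 between Krt16 and Krt17.

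The promoters of the S100 pair are shown because both genes were highest in the same cells, while a few other cell classes held S100a8 with little S100a9 in some libraries. RefSeq promoters (GRCm38.p6, from 250 bases before to 50 after the start that RefSeq gives) matched these 2 of the 6 members. For S100a8 that start lies inside the gene as the coordinates above give it, so its window reaches further into the gene. Capitals mark TATAAA and TTNCNNAA, a pattern bound by C/EBP factors, found on either strand.
S100a8, chr3:90668821-90669120, plus strand: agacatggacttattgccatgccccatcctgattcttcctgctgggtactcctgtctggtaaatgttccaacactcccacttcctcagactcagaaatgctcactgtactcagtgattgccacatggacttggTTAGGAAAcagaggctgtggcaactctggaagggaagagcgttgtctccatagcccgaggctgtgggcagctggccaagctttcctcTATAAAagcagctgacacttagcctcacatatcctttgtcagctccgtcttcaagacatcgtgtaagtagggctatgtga
S100a9, chr3:90695672-90695971, minus strand: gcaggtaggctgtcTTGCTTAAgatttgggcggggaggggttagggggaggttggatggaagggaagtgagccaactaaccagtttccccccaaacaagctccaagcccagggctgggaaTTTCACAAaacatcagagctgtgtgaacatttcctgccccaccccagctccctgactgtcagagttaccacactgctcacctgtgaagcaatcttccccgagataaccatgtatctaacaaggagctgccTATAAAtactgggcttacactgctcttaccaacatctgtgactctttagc
Both hold 1 TATAAA, which stands in 13.6% of 32851 promoters of the same length. S100a8 holds 1 and S100a9 holds 2 matches of TTNCNNAA, which 40.7% of the promoters hold. Neither holds TGANTCA, an AP-1 pattern present in 7.81% of them. No marked motif overlaps another, and a match describes the letters only.

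The libraries kept 6582 control, 10433 AA and 9832 AA+Ab cells, with medians of 13694.5, 11177 and 11371 UMIs. Basal, suprabasal, upper follicle and outer root sheath with bulge keratinocytes, set by marker UMIs that include no member, made up 3857, 6980 and 5754 of them. Pairs of libraries shared 14 to 23 barcodes. The leading genes of the classes fitted their names for suprabasal (Krt10, Krt1, Krtdap), upper follicle (Defb6, Cst6, Krt79) and root sheath cells (Lgr5, Sox9), whereas 1 basal marker, Itga6, was among the 10 leading genes of basal cells. Between 175 and 384 basal cells a library lay within 0.1 of the lowest score accepted. The suprabasal class also took in cells of 2 follicle clusters, led by Krt79 and by Krt24, so levels are given by cluster as well. Levels are counts of a gene's UMIs scaled to 1000000 UMIs of the same cells (CPM). With 1 library a group there is no replicate check and no p-value, and the 95% intervals cover counting error only.

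Krt16 was at least 2-fold higher in AA than in control in all 4 keratinocyte classes. Compared with control, the AA library had at least 2-fold more of 2 members in basal cells, of 4 in suprabasal cells, of 2 in upper follicle cells and of 1 in root sheath cells. Krt6a was among them in basal, suprabasal and upper follicle cells, and the S100 pair in suprabasal cells. These counts are of 5, 5, 3 and 3 members that had at least 20 UMIs in both libraries, and 0.892%, 0.990%, 1.45% and 1.55% of all such genes were as much higher. No member was at least 2-fold lower, against 1.54%, 2.71%, 0.635% and 0.943% of genes. The median gene shifted by -0.14 to 0.01 on the log2 scale over these classes, with suprabasal cells at -0.14.

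Between AA+Ab and AA, Krt16 and Krt6a were at least 2-fold lower in AA+Ab in basal cells (2 of 5 members, background 1.38%) and in upper follicle cells (2 of 4, background 3.35%). In suprabasal cells only Krt16 was (1 of 5, background 1.38%), and in root sheath cells none of 3 was (background 2.43%). No member was at least 2-fold higher in AA+Ab, against 0.930%, 0.817%, 0.474% and 0.555% of genes in basal, suprabasal, upper follicle and root sheath cells. Both comparisons use the AA library, so their ratios are not independent.

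**Figure D1:**
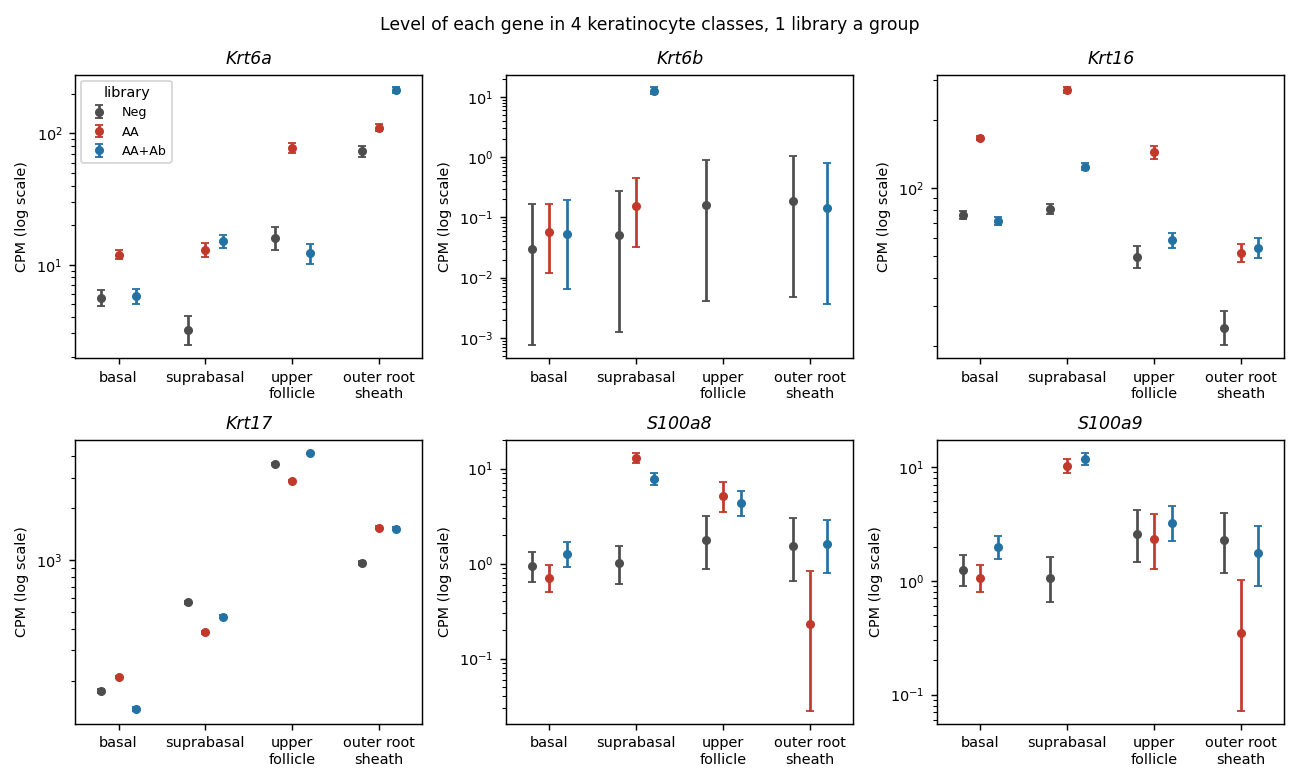
Levels of the 6 genes in CPM (log axis) in 4 keratinocyte classes of the control, AA and AA+Ab libraries, with 1 point a library and 95% Poisson intervals as bars. Krt16 was highest in AA in basal, suprabasal and upper follicle cells, Krt17 was highest in upper follicle cells, and levels of 0 are not drawn.

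Krt16, the type I partner of Krt6 chains, was measured in basal cells at 75.8 CPM in control, 167 in AA and 71.6 in AA+Ab. In suprabasal cells the levels were 81.0, 272 and 125 CPM. In upper follicle cells they were 49.7, 144 and 58.6 CPM. In these 3 classes AA stood above both other libraries and the intervals did not overlap. Root sheath cells held 24.1, 51.6 and 54.4 CPM, where the whole class put AA+Ab near AA. That level rested on few cells, since 5 control, 6 AA and 7 AA+Ab root sheath cells with at least 10 UMIs held 93 of 127, 291 of 443 and 307 of 374 UMIs of Krt16, and the other root sheath cells stood at 6.61, 18.1 and 9.96 CPM, with AA+Ab nearer to control. With marked doublets removed, the root sheath log2 ratio of AA+Ab over AA was -0.33. The AA level was 2.20-fold the control level in basal cells (log2 1.14, interval 1.07 to 1.20), 3.36-fold in suprabasal cells (1.75, 1.67 to 1.83), 2.91-fold in upper follicle cells (1.54, 1.35 to 1.73) and 2.14-fold in root sheath cells (1.10, 0.81 to 1.40). The order of the AA levels was suprabasal, basal, upper follicle and root sheath, and neighbours in that order had separate intervals. Leaving out 1 cell in each library gave 0.67 for root sheath cells, where a single AA cell held 45.4% of the Krt16 UMIs.

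AA+Ab over AA, the log2 ratio of Krt16 was -1.22 in basal cells (-1.28 to -1.16), -1.13 in suprabasal cells (-1.19 to -1.06), -1.30 in upper follicle cells (-1.45 to -1.15) and 0.08 in root sheath cells (-0.13 to 0.28). Set against control, AA+Ab was at -0.08 in basal cells (-0.16 to 0.00), 0.62 in suprabasal cells (0.53 to 0.71), 0.24 in upper follicle cells (0.04 to 0.44) and 1.18 in root sheath cells (0.88 to 1.48). Basal cells of AA+Ab were therefore at nearly the control level, and suprabasal cells above it, while the root sheath value rests on the few cells above.

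More cells carried Krt16 in AA as well. A UMI of it was found in 14.6% of control basal cells, 22.8% of AA and 11.5% of AA+Ab. After every cell was thinned to 2000 UMIs the shares were 6.24%, 10.8% and 5.06%. Suprabasal cells gave 8.30%, 13.2% and 7.47% after thinning, and upper follicle cells 5.41%, 10.7% and 5.66%. T cells, which should lack keratins, had 1.43%, 3.14% and 1.44% at the same depth (median before thinning 5354, 4105 and 4417 UMIs, against 12504.5, 10930.0 and 10946.5 in basal cells). The T cell share was highest in AA too. Root sheath cells were at 1.86%, 3.61% and 3.54%, close to T cells in control and AA and above them in AA+Ab. As CPM, T cells held 13.3, 40.3 and 3.76 of Krt16 and melanocytes 14.2, 91.1 and 11.6, both highest in AA. At 2000 UMIs, though, 4 of 119, 2 of 64 and 4 of 188 melanocytes had a UMI of Krt16. Their share was thus not highest in AA and rested on few cells. The part of free RNA in the Krt16 levels was not tested. With marked doublets removed, the AA over control ratio of Krt16 was 1.18 in basal, 1.69 in suprabasal, 1.60 in upper follicle and 1.14 in root sheath cells.

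**Figure D2:**
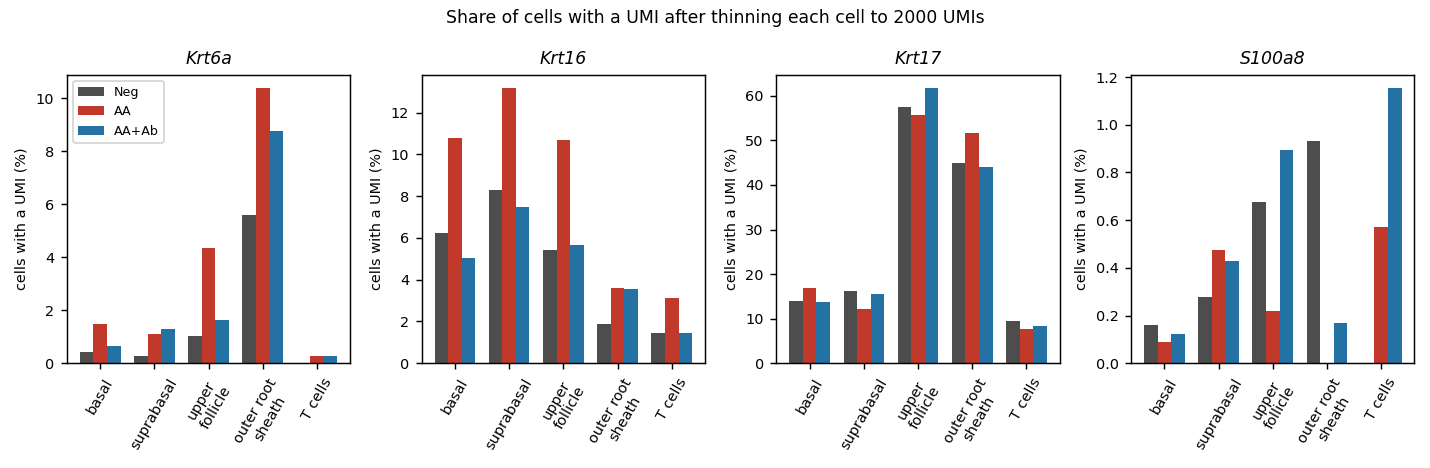
Share of cells (%) with a UMI of Krt6a, Krt16, Krt17 or S100a8 (1 panel each) after thinning every cell to 2000 UMIs, with 1 bar for each class and library and T cells for background. The Krt16 share of basal cells was 10.8% in AA against 6.24% in control, and the S100a8 shares of keratinocytes stayed within the range of those of T cells.

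Among clusters made without the members, the one with Itgb6 among its leading genes held the most Krt16. It had 403 CPM in control (n = 270 cells), 538 in AA (n = 1048) and 541 in AA+Ab (n = 195), so its level was much the same in both AA libraries. The suprabasal cluster led by Krt1 and Mt4 had 194, 379 and 211 CPM and followed the pattern of the classes. The Krt77-led suprabasal cluster, with 30.8, 91.6 and 63.3 CPM, did so at lower levels. The basal cluster led by Fosl1 had 115, 128 and 172 CPM and was highest in AA+Ab. Over the 23 clusters with at least 20 UMIs of Krt16 in both libraries, the interval of AA over control lay above 0 in 16 and below 0 in 2, with a median log2 ratio of 0.72. For AA+Ab over AA it lay below 0 in 12 of 21 clusters and above 0 in 2.

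The difference in basal cells rested in large part on the Itgb6 cluster, to which 223 control, 929 AA and 155 AA+Ab basal cells belonged and which held 54.4%, 71.6% and 39.3% of basal Krt16 UMIs. Without it the log2 ratio in basal cells was 0.68 for AA over control and -0.42 for AA+Ab over AA, under 2-fold both ways. In upper follicle cells it was 0.71 and -0.54. In suprabasal cells it stayed at 1.76 and -1.13. Reweighted to the class mix of control, the ratio of Krt16 over all keratinocytes was 1.37 for AA over control, beside 1.47 as observed, and 0.25 for AA+Ab over control, beside 0.23. The weights are those of marker classes, so a shift between clusters inside a class, such as that of the Itgb6 cluster, stays in these values.

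**Figure D3:**
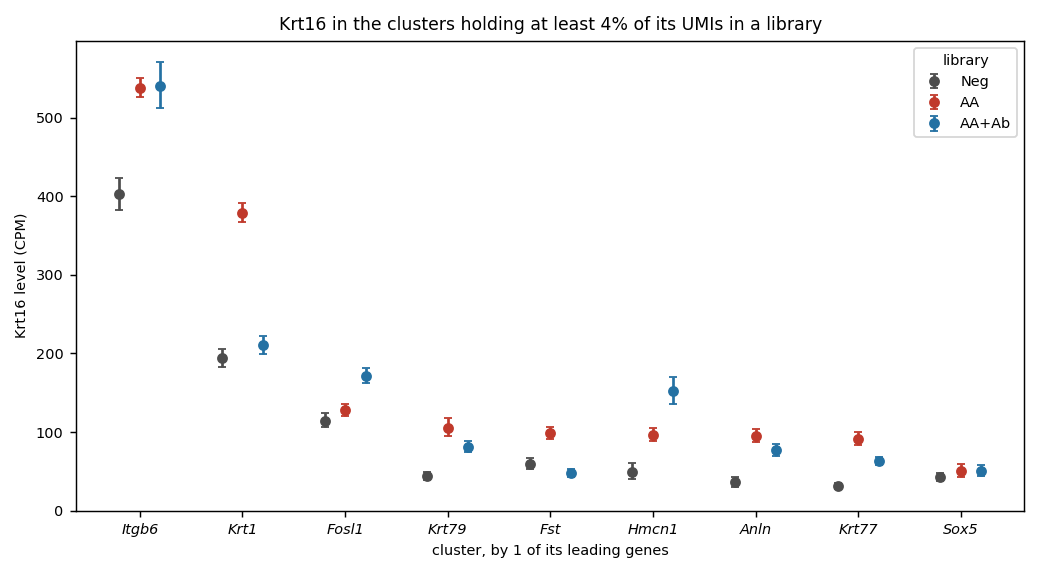
Krt16 level (CPM) in the clusters holding at least 4% of its UMIs in a library, named by 1 of their leading genes, with 1 point a library and 95% Poisson intervals as bars. The Itgb6 cluster reached 538 CPM in AA and 541 in AA+Ab, and the Krt1 cluster 379 and 211.

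The order of Krt16 was also looked at in cells split by other signals. The UMIs of these signals were counted after every cell was thinned to 2000 UMIs, and cells below that depth were left out. The cutoffs of 3 and 10 UMIs therefore apply at that depth, while the levels use all UMIs of the cells. Among cells with under 3 UMIs of interferon-response genes, basal levels were 70.6, 169 and 72.3 CPM in control, AA and AA+Ab, and suprabasal levels were 80.7, 273 and 119. Basal cells with at least 3 such UMIs went the other way, at 279.8 CPM in 64 control cells, 149.8 in 408 AA cells and 58.5 in 153 AA+Ab cells. Suprabasal cells with at least 3 had 105, 258 and 368 CPM in 9, 86 and 32 cells. Root sheath cells under 3 had 23.7, 25.8 and 54.1 CPM. Those with at least 3 had 38.8, 363 and 62.2 CPM in 8, 42 and 27 cells. The 42 AA cells held 239 Krt16 UMIs, but a single AA root sheath cell held 201 of the 443 in its class. The split was not repeated without that cell, so whether the AA difference there went with interferon-response UMIs was not tested. The split thus gave no single pattern over the classes, and the number of cells above it differed between libraries. In basal cells with at least 10 UMIs of dissociation genes, which tissue digestion induces, Krt16 was at 76.0, 144 and 76.8 CPM. In those with under 10 it was at 72.7, 376 and 36.7 CPM, so the difference was wider where dissociation genes were low. Suprabasal cells differed less by this split, with 82.8, 272 and 134 CPM above and 73.0, 271 and 92.3 below.

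Krt17, the other type I chain and a keratin of normal follicle sheaths, had its highest level in upper follicle cells, at 3618 CPM in control, 2869 in AA and 4156 in AA+Ab. Root sheath cells followed with 965, 1540.4 and 1525 CPM. Suprabasal cells had 570.3, 382 and 469.5 CPM and basal cells 175, 210.2 and 138. The order of the classes was therefore the same in the 3 libraries and unlike that of Krt16. No class differed 2-fold between libraries. The log2 ratio of AA over control was 0.27 in basal cells (0.22 to 0.31), -0.58 in suprabasal cells (-0.62 to -0.54), -0.33 in upper follicle cells (-0.36 to -0.31) and 0.67 in root sheath cells (0.63 to 0.72). AA+Ab over AA it was -0.61 in basal (-0.66 to -0.56), 0.30 in suprabasal (0.25 to 0.34), 0.53 in upper follicle (0.51 to 0.56) and -0.01 in root sheath cells (-0.05 to 0.02).

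The Krt79-led follicle cluster, with 4366 (n = 162 cells), 4695 (n = 192) and 5960 (n = 344) CPM, held 42.3%, 22.7% and 48.0% of all Krt17 UMIs of its library. The Krt24-led cluster was higher still, with 8101, 6066 and 10677 CPM. The Lgr5-positive cluster led by Hmcn1 had 2496, 2660 and 4084 CPM. All 3 follicle clusters were highest in AA+Ab. Of the Krt17 UMIs in the suprabasal class, the Krt79-led and Krt24-led clusters held 53.6% and 26.8% in control, 43.8% and 38.0% in AA and 37.9% and 42.6% in AA+Ab. Without both clusters the ratio in upper follicle cells turned to 0.74 for AA over control and to -0.91 for AA+Ab over AA. The direction there thus depends on which cells are counted. T cells held 178, 520 and 88.2 CPM of Krt17, with 94.0% of the AA UMIs in 10 cells.

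**Figure D4:**
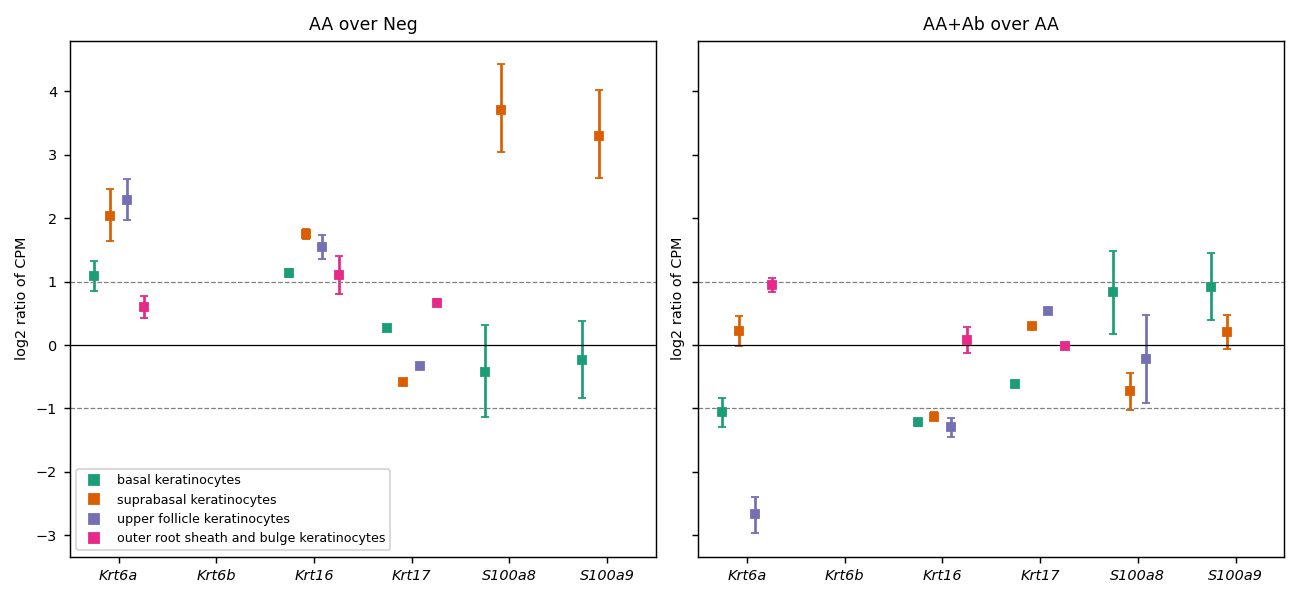
Log2 ratio of CPM for AA over Neg and AA+Ab over AA in the 4 classes, for genes with at least 20 UMIs in both libraries, with exact 95% counting intervals. Krt16 stood at 1.10 to 1.75 in AA over Neg and at -1.30 to 0.08 in AA+Ab over AA, and Krt17 lay on both sides of 0.

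Krt6a, the type II partner, was above all a gene of root sheath cells, at 73.1 CPM in control, 111 in AA and 213 in AA+Ab. The Hmcn1-led cluster alone held 55.8%, 50.04% and 59.7% of its UMIs, at 269.5, 256 and 638 CPM. Upper follicle cells had 15.9, 77.8 and 12.2 CPM. Basal cells had 5.61, 11.9 and 5.73 CPM, and suprabasal cells 3.16, 12.99 and 15.1. The AA library was thus above control in each class, with log2 ratios of 1.09 in basal (0.85 to 1.33), 2.04 in suprabasal (1.64 to 2.46), 2.29 in upper follicle (1.97 to 2.62) and 0.60 in root sheath cells (0.43 to 0.77). AA+Ab over AA the ratios were -1.06 (-1.29 to -0.83), 0.22 (-0.02 to 0.46), -2.67 (-2.97 to -2.39) and 0.94 (0.83 to 1.06) in the same order, lower in 2 classes and higher in root sheath cells as a whole. In root sheath cells 16, 29 and 28 cells with at least 10 UMIs held 313, 661 and 1284 of the Krt6a UMIs, and the others stood at 14.98, 36.4 and 28.9 CPM, with AA+Ab below AA. Within the Hmcn1-led cluster AA did not lie above control (log2 -0.07, interval -0.23 to 0.08). The leading AA upper follicle cells, with 69, 42 and 42 of 471 Krt6a UMIs, belonged to this cluster. So did the top control cell of that class, with 80 of 99, while the top AA+Ab cell, with 50 of 128, lay in the Krt79-led cluster. The upper follicle ratios thus include cells of the Hmcn1-led cluster, and their part in these ratios was not tested.

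Few cells carried much of this Krt6a. One cell held 80.8% of the control UMIs in upper follicle cells and another 60.3% in suprabasal cells, and without the top cell of each library the AA over control ratios were 4.45 and 2.87. Cells with under 10 UMIs of Krt6a still gave 1.45, 17.4 and 7.45 CPM in upper follicle cells and 2.56, 6.97 and 3.76 in basal cells. With UMIs of cell cycle genes counted after thinning to 2000 UMIs, basal cells with at least 3 had 21.9, 42.8 and 11.7 CPM. The other basal cells that reached this depth had 3.47, 8.80 and 4.91, so cycling cells were higher in each library. In control, 1 marked doublet of 128537 UMIs held 40 of the 190 basal Krt6a UMIs, and this split was not repeated without it. After thinning, 4.36% of AA upper follicle cells had a UMI of Krt6a against 1.01% in control and 1.64% in AA+Ab, and 0 to 0.288% of T cells. The 63.1 CPM of Krt6a in AA T cells came to 99.2% from 1 cell.

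Krt6b, the sister gene of Krt6a, was nearly absent, with 4 UMIs in all control cells, 6 in AA and 283 in AA+Ab. Suprabasal cells of AA+Ab held 277 of them, and 3 cells held 276, with 185, 61 and 30 UMIs. The cell with 185 also held 91 UMIs of Krt16, 501 of Krt1, 808 of Krt10, 17 of S100a8 and 10 of S100a9. The cell with 61 held 362 UMIs of Krt16, 596 of Krt1, 75 of S100a8, 67 of S100a9 and 43 of Sprr1b, a cornified envelope gene. The cell with 30 held 109 UMIs of Krt6a, with 726 of Krt14 and 29 of Krt1. None of the 3 was marked as a doublet, but they held 52165, 39630 and 25599 UMIs in all. The median over all cells of their library, not of suprabasal cells alone, was 11371. The cell with 185 also had 2 UMIs of neutrophil markers other than Il1r2, and the other cells had 0. The level of 12.8 CPM in that class is therefore a level of 3 cells.

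S100a8 and S100a9 were genes of neutrophils in all 3 libraries. S100a8 stood at 34935 CPM in 23 control neutrophils, 14144 in 6 AA neutrophils and 15187 in 75 AA+Ab neutrophils. S100a9 stood at 63857, 27831 and 35187 CPM. Neutrophils held 88.8%, 44.6% and 75.4% of the S100a8 UMIs and 91.4%, 59.6% and 82.9% of the S100a9 UMIs of their library. Neutrophils were few in AA, and their levels of both genes were also below those of control. The library totals of 3558, 1040 and 6421 UMIs for S100a8 and 6325, 1533 and 13530 for S100a9 were lowest in AA, opposite to Krt16. The parts of cell number and of level in these totals were not tested. Monocytes, macrophages and dendritic cells came next, with 248, 182 and 1484 CPM of S100a8 and 653, 411 and 3031 of S100a9.

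In keratinocytes the pair was scarce. Basal cells had 0.945, 0.707 and 1.26 CPM of S100a8 and 1.24, 1.05 and 1.98 of S100a9, against 4.05, 0.970 and 16.4 CPM of S100a8 and 8.10, 0.970 and 34.3 of S100a9 in T cells. Upper follicle cells ranged from 1.77 to 5.12 CPM of S100a8 and from 2.31 to 3.24 of S100a9, and root sheath cells stayed under 2.5 CPM of both. Shares of keratinocytes with a UMI after thinning, from 0 to 0.932% for S100a8 and from 0 to 0.773% for S100a9, lay in the range of T cells over the libraries, which was 0 to 1.15% and 0.571% to 0.952%, or below it. Within control, 3 of 322 root sheath cells and 0 of 210 T cells had S100a8, so for that gene T cells give no background there and the counts are too small to set the shares apart. Suprabasal cells were the exception in level, with 1.00, 12.99 and 7.82 CPM of S100a8 and 1.05, 10.3 and 11.8 of S100a9. The log2 ratio of AA over control there was 3.70 for S100a8 (3.04 to 4.43) and 3.29 for S100a9 (2.64 to 4.02).

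That level came from a handful of cells. At least 10 UMIs of the pair were found in 0 of 3857 control cells of the 4 classes, which allows a share of up to 0.0778% by a limit of 3 counts (0.0956% by the Clopper-Pearson interval used for the others), in 7 of 6980 AA cells (0.1003%, interval 0.0403% to 0.207%) and in 9 of 5754 AA+Ab cells (0.156%, 0.0716% to 0.297%). These cells held 85.0% of the S100 UMIs of the AA classes and 59.6% of those of AA+Ab. One AA cell held 160 UMIs of S100a8, 112 of S100a9, 142 of Krt16 and 349 of Krt1. It had none of Ptprc or of a neutrophil marker other than Il1r2. Another AA cell called suprabasal, with 28 and 52 UMIs of the pair, held 650 of Krt14 and 16 of Krt1. The other AA suprabasal cells of this set had more Krt1 than Krt14. In AA+Ab both kinds were found, such as a marked doublet with 905 of Krt14 and 178 of Krt1, and a cell with 120 and 596. The class name is therefore uncertain for some of these cells. Of the 7 and 9 cells, 1 and 3 had a UMI of a neutrophil marker other than Il1r2, and 1 and 3 were marked as doublets. Suprabasal cells with under 10 UMIs of the gene had 1.00, 0.632 and 1.31 CPM of S100a8 and 1.05, 0.421 and 2.10 of S100a9, so AA was then not above control. Without the clusters led by Krt24 and Krt79 the AA over control ratios in suprabasal cells were 1.68 and 1.80. Ly6g, the defining neutrophil marker, had 16, 0 and 9 UMIs in control, AA and AA+Ab neutrophils and 0 UMIs in the 4 classes of all libraries, and 5 of the other 6 neutrophil markers stayed under 0.5 CPM there, while Il1r2 had 66.3 to 76.9 CPM in these keratinocytes.

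The ratio of S100a8 to S100a9 UMIs differed between classes and, in some of them, between libraries. There were 0.547, 0.508 and 0.432 UMIs of S100a8 for each of S100a9 in neutrophils, and 0.380, 0.441 and 0.490 in monocytes, macrophages and dendritic cells. Melanocytes, the pigment cells, held 78 UMIs of S100a8 and 5 of S100a9 in control, 33 and 0 in AA and 114 and 13 in AA+Ab. Their S100a8 level was 32.5, 33.8 and 47.4 CPM with a UMI in 12.5%, 17.9% and 13.5% of cells, above the 4.05, 0.970 and 16.4 CPM of T cells in each library. In AA+Ab the inner root sheath held 92 UMIs of S100a8 and 16 of S100a9, and companion layer and medulla-like cells 61 and 14. The ratios there were 5.75 (3.36 to 10.5) and 4.36 (2.41 to 8.44), above the neutrophil ratio of 0.432 (0.417 to 0.446) in the same library by more than counting error. Melanocytes stood at 15.6 (6.41 to 49.4) in control and 8.77 (4.93 to 16.97) in AA+Ab.

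**Figure D5:**
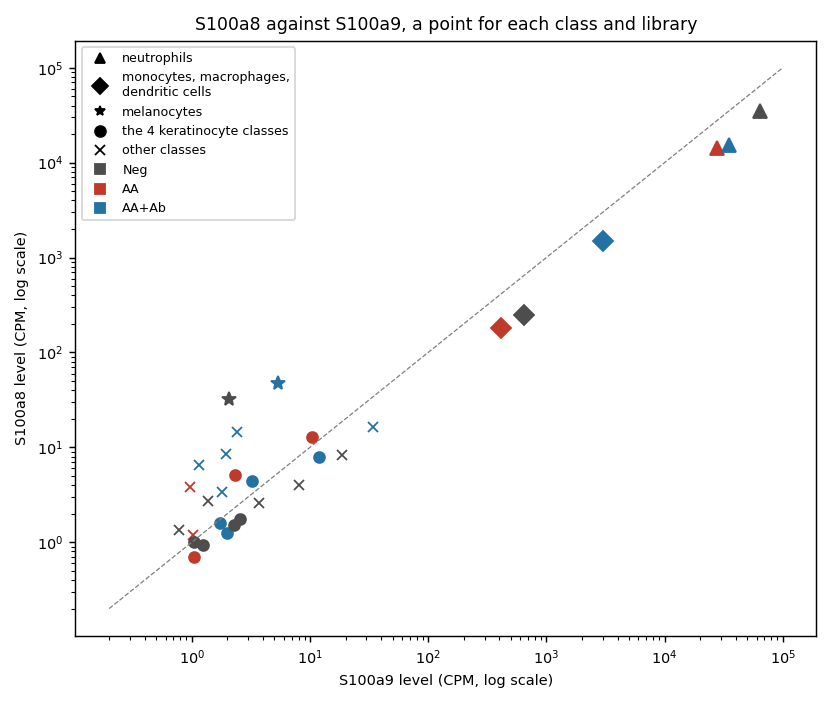
S100a8 level against S100a9 level (CPM, log axes), 1 point for each cell class and library with at least 20 UMIs of the pair and neither gene at 0, with a dashed line at a ratio of 1. Neutrophils stand at the upper right under the line (27831 to 63857 CPM of S100a9), and melanocytes of control and AA+Ab stand above it.

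Detection of 2 members in the same cell was counted at equal depth. At 2000 UMIs a cell, 28.6%, 26.0% and 28.9% of control, AA and AA+Ab basal cells with Krt16 also had Krt17, against 13.1%, 15.8% and 13.01% of basal cells without Krt16. In suprabasal cells of AA, 6 of 14 cells with Krt6a had Krt16. In root sheath cells 77.8%, 75.4% and 76.9% of cells with Krt6a had Krt17, against 43.1%, 49.0% and 40.8% of the others. In upper follicle cells the direction differed between libraries, as Krt17 was found in 37.5%, 61.2% and 55.3% of control, AA and AA+Ab cells with Krt16 and in 58.6%, 55.1% and 62.1% of those without, from 16, 49 and 38 cells with Krt16.

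Genes tied to the members were compared over the 4 classes together, where 1.39% of genes were at least 2-fold higher and 1.66% at least 2-fold lower in AA than in control. Among other S100 genes, 0 of 10 were higher and 1 was lower (S100a3, -1.30, a gene of hair cuticle), with S100a10 at 0.17, S100a11 at 0.07 and S100a16 at -0.23. Among other antimicrobial and alarm genes of keratinocytes 1 of 11 was higher, Lcn2 (1.77), an iron-trapping protein, from 0.903 to 3.09 CPM, with Slpi at 0.52, Il1a at 0.45 and Defb14 at -0.60. Of the receptors of the S100 pair, Bsg alone had 20 UMIs and stood at -0.11. Of 9 cytokines known to induce these genes, 2 had at least 20 UMIs in both libraries, and of these Il6 was higher in AA (85 UMIs in control and 448 in AA, 1.30 and 5.21 CPM) and Tnf was at 0.08. Under that minimum in control, Il24 had 1, 87 and 35 UMIs in control, AA and AA+Ab (AA over control 6.05, interval 3.53 to 11.37) and Ifng, a cytokine of lymphocytes, had 10, 34 and 13 UMIs (1.37, interval 0.32 to 2.55), both named after their values were seen.

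Among the transcription regulators, Fosl1, an AP-1 subunit, had 372, 841 and 330.0 CPM in control, AA and AA+Ab (1.18 for AA over control and -1.35 for AA+Ab over AA). Over the same 4 classes Krt16 had 70.7, 177 and 83.2 CPM, so both genes were highest in AA, but only Krt16 was above control in AA+Ab. In AA+Ab over AA 2.35% of genes were at least 2-fold lower. Cebpd was at 0.76, Nfkbiz at 0.04 and Gata3 at -0.35. Among 15 other epithelial keratins none was 2-fold higher in AA and 2 were lower (Krt19 at -2.16 and Krt18 at -1.56), while Krt14, the basal type I chain, was at 0.24, Krt5 at 0.01 and Krt1 at -0.02. Of 8 interferon-response genes 6 were higher, with a median of 2.19, Iigp1 at 7.10, Igtp at 2.68 and Cxcl10 at 2.25. None of 7 cell cycle genes (Mki67 0.03, Stmn1 -0.45) or 9 dissociation genes (Dnajb1 0.66, Hspa1b -0.42) was 2-fold different, and their part in the Krt16 difference was not tested.

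Over 42 points of a class in a library, with 15162 genes compared, the genes most like Krt16 in log2(CPM + 1) were Hbegf (Pearson's r 0.856), a ligand of the EGF receptor, Sun1 (0.821), Dusp7 (0.805), Npepps (0.804) and Fam83b (0.797). Krt17 was most like Dpysl5 (0.807) and Sox7 (0.787), and Krt6a most like Tgm5 (0.735), a transglutaminase of the epidermis, and Rnf152 (0.728). Among the 5 genes most like S100a8 were Mcemp1 (0.899), Retnlg (0.896) and Trem1 (0.896), a receptor of myeloid cells, and S100a9 was most like Nlrp3 (0.958), an inflammasome sensor. Krt6b was most like Kprp (0.627), a protein of keratinizing cells, at its few UMIs. Among the members, S100a8 and S100a9 correlated at 0.90, Krt6a and Krt16 at 0.54 and Krt16 and Krt17 at 0.49. The points share libraries, depth and cells, so these values describe likeness only.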

How the data were processed

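Single cell 3′ libraries of dorsal skin, 1 for each group, were analysed from the count matrices that the authors deposited, which hold UMI counts per gene and cell made with Cell Ranger 7.2.0 on mm10 per the labels. Collagenase digestion and a Percoll gradient preceded capture, so the mix of cells is not that of skin. Only cells with at least 200 genes and at most 10% of UMIs from mitochondria were used, which left 26847 cells and 119193310, 135609481 and 139663314 UMIs in Neg, AA and AA+Ab. Doublets were kept, and removed in an alternative (388, 947 and 883 marked by simulated doublets).

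Cells took 1 of 18 classes from the score of fixed markers (at least 2 markers, 3 UMIs and a score of 0.3 for keratinocyte classes or 1.5 for others). These minimums were set after marker UMIs were seen. Clusters (35) were made without the members from 2000 variable genes, 30 components and 15 neighbours, at Leiden resolution 1.5, and no deposited annotation was used. UMIs were summed over cells. CPM has exact Poisson, shares have Clopper-Pearson and ratios have exact conditional intervals at 95%. A gene was called different at 2-fold or more, with at least 20 UMIs in both libraries. Ratios were checked on simulated Poisson counts, which hold no variation between cells or libraries, so the check does not cover such variation. Members and lists were chosen with earlier results of these data known. Genes named were the members, the 3 highest and 3 lowest AA over Neg ratios of each list and the 5 genes most like each member (of these, some are printed), and others were named after their values were seen. Alternatives were a doubled marker minimum, classes from clusters, 5% mitochondrial UMIs, 1000 genes, doublets removed, thinning, other CPM bases and median centring. Python 3.11.15, numpy 2.4.6, scipy 1.17.1, pandas 2.3.3 and scanpy 1.11.5 were used. A few genes that the naming rule covers are not reported here.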

Additional observations from a re-analysis of the deposited data

Results flagged for a closer look

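The ratios of 3 members went in opposite directions in different keratinocyte classes of the same libraries, and the difference between classes was not tested. Krt17 in AA over control was at 0.27 in basal and 0.67 in root sheath cells but at -0.58 in suprabasal and -0.33 in upper follicle cells (log2). Krt17 in AA+Ab over AA was at 0.30 in suprabasal and 0.53 in upper follicle cells but at -0.61 in basal cells. Krt6a in AA+Ab over AA was at 0.94 in root sheath cells but at -1.06 in basal and -2.67 in upper follicle cells. S100a8 in AA+Ab over AA was at 0.83 in basal and -0.73 in suprabasal cells, from 37 and 47 UMIs and from 248 and 169 UMIs. In suprabasal cells 1 AA cell held 160 of the 248, and the S100a8 ratio turned to 3.66 with classes from clusters, 1.83 without the Krt24 and Krt79 clusters and 0.34 with the marker minimum doubled, so this opposite direction rests on few cells.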

How the results depend on the processing

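No paired analysis was possible because each group is 1 library, and for the same reason no replicate could be left out. Leaving out single cells or clusters was chosen after seeing the data. Krt16 kept its direction under all 11 alternatives in basal (AA over control 0.68 to 1.35, AA+Ab over AA -1.28 to -0.42), suprabasal (1.06 to 1.88, -1.27 to -0.95) and upper follicle cells (0.71 to 1.60, -1.56 to -0.38), and in root sheath cells for AA over control (0.67 to 1.14) but not for AA+Ab over AA (-0.33 to 0.66). The count of members at least 2-fold higher in AA than control changed from 2 to 1 in basal cells (thinned, or without the Itgb6 cluster), from 4 to 1 in suprabasal cells (classes from clusters, or thinned) or 2 (without 1 cell), from 2 to 1 in upper follicle cells (classes from clusters, thinned, without the Itgb6 cluster or without 1 cell) and from 1 to 0 in root sheath cells (classes from clusters, 5% mitochondrial UMIs, thinned or without 1 cell). Members lower in AA than control went from 0 to 1 in basal cells without 1 cell. Members higher in AA+Ab than AA went from 0 to 2 in basal cells with the marker minimum doubled and to 1 with classes from clusters or without 1 cell, from 0 to 1 in suprabasal cells with the minimum doubled or doublets removed and to 2 without the Krt24 and Krt79 clusters, and from 0 to 1 in root sheath cells (minimum doubled, classes from clusters, 5% mitochondrial UMIs, CPM without mitochondrial, ribosomal and hemoglobin genes, or median-centred). Members lower in AA+Ab went from 2 to 1 in basal cells (classes from clusters, doublets removed or without the Itgb6 cluster), and in upper follicle cells from 2 to 4 (minimum doubled) or 1 (without the Itgb6 cluster). With class weights by cells, Krt16 at the control mix was at 1.30 for AA and 0.17 for AA+Ab over control, and Krt17 for AA at -0.03. With classes from clusters, direction turned for Krt6a in root sheath cells (AA over control -0.07), S100a9 in suprabasal cells (-0.20), Krt17 in upper follicle cells (0.10) and S100a8 in suprabasal cells (AA+Ab over AA 3.66). It also turned for Krt17 in suprabasal cells with doublets removed (AA+Ab over AA -0.14) and for S100a8 there with the minimum doubled (0.34). Without the Krt24 and Krt79 clusters it turned for S100a8 in suprabasal cells (AA+Ab over AA 1.83) and Krt17 in upper follicle cells (AA over control 0.74, AA+Ab over AA -0.91). The cause was not tested. S100 UMIs in keratinocytes are too few at this depth to separate most shares from background.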
